A study of Arabidopsis thaliana with 9 samples.

Results

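In 9 arrays of Arabidopsis thaliana seedlings, the 3 arrays labelled biological replicate 1, 1 each of the F1 hybrid, the accession C24 and the accession Col, were set against the 6 arrays labelled replicate 2 or 3 of the same genotypes. All 9 arrays of the series entered, 3 on the one side and 6 on the other, with genotype held constant. Per the labels, the seedlings were taken without their roots at 10 days, in the labels' unit DAS, after growth at 22 degrees under fluorescent lights with a photoperiod of 16 h and 8 h. F1 is labelled as the hybrid of Col and C24, without its mother, and all 9 arrays carried biotin-labelled RNA on the same 1-colour Affymetrix platform. The labels number the biological replicates and say nothing of how many plants made a sample, or whether the same number in 3 genotypes stands for plants grown, harvested, labelled or hybridised together, so these cannot be told apart. The arrays numbered 1 are 1 number set against 2 others, and every p-value below measures spread between arrays, not between repeated plantings.

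Many transcripts of a seedling shoot follow its surroundings and its hour. Expansins loosen the cell wall, and enzymes that cut or de-esterify pectin remodel it as cells grow. Flavonols and anthocyanins accumulate with light, while the SnRK1 kinase and its associated genes respond to a shortage of sugar.

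Of 22746 probe sets that are no controls, 15922 passed the filter on dim signals, set at a normalized signal of 11.1, and were tested with limma. The test called 514 probe sets, 3.23% of those tested. The signal of 206 probe sets was higher in replicate 1 at an adjusted p under 0.05 (1.29%) and that of 308 was lower (1.93%). At least 2-fold differences were found for 78 of the higher and 162 of the lower probe sets, and at least 4-fold differences for 10 and 24. The median log2 difference was 0.87 among the higher and -1.02 among the lower probe sets, while over all tested probe sets it was 0.01. The spread of the calls over the range of signal shows them from dim to bright transcripts, with a median signal of 131 for the higher and 155 for the lower ones, against 108 for all tested.

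**Figure D1:**
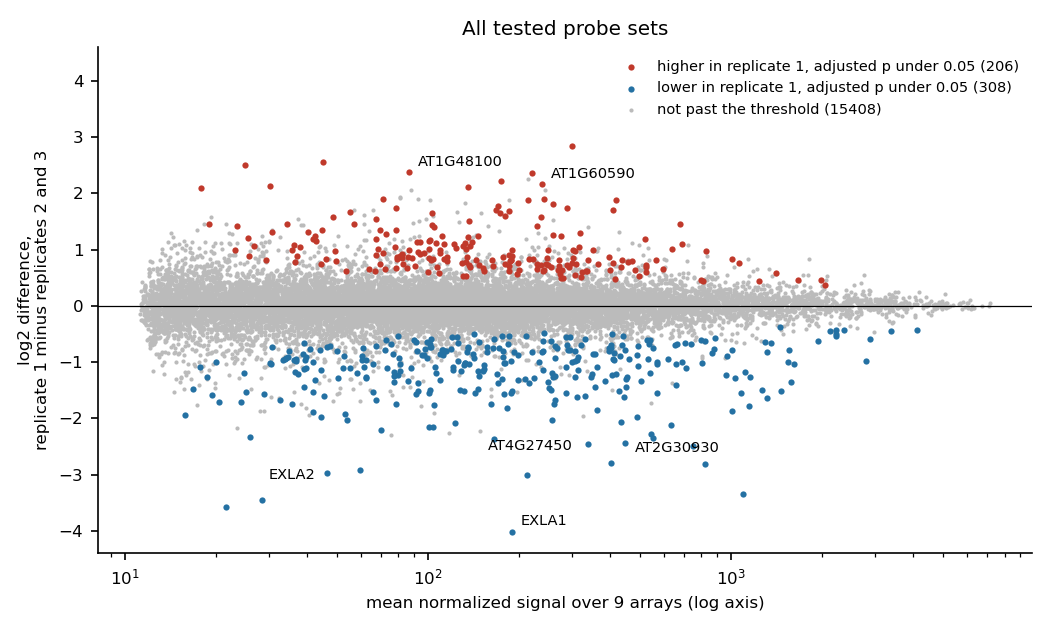
Log2 difference, replicate 1 minus replicates 2 and 3 (vertical), against the mean normalized signal over 9 arrays (horizontal, log axis), with 1 point per tested probe set. The 206 higher and 308 lower probe sets lie across the range, and EXLA1 is lowest at -4.01.

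Among signs of RNA quality or labelling, the GAPDH and ubiquitin ratios were highest in replicate 1 in each genotype, and the actin ratio was not. The ratio of 5' to 3' signal of the GAPDH control was 0.932 in F1, 0.995 in C24 and 0.983 in Col in replicate 1, against 0.885, 0.940 and 0.739 in replicate 2 and 0.852, 0.736 and 0.938 in replicate 3. That of the ubiquitin control was 0.766, 0.852 and 0.694 in replicate 1, against 0.683, 0.780 and 0.459 in replicate 2 and 0.733, 0.405 and 0.622 in replicate 3. Both ratios were thus higher in replicate 1 than in both other arrays of each genotype, and their part in the differences below was not tested. The ratio of 5' to middle signal of the actin control was highest in replicate 1 in Col alone.

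The counts depended on the filter and on single arrays. With no filter on dim signals there were 24 higher and 31 lower calls. Of single arrays left out, those of replicate 1 cost the most calls. Each of them is 1 of 3 on its side rather than 1 of 6, and the part of this in the loss was not tested. Without the Col array of replicate 1 there were 3 higher and 27 lower calls, without that of C24 11 and 49, and without that of F1 31 and 117. Leaving out 1 of the 6 other arrays gave 153 to 200 higher and 197 to 285 lower calls. Setting replicate 1 against replicate 3 alone gave 159 and 218 calls, and against replicate 2 alone 417 and 484. In each of these settings every one of the 514 probe sets that was tested again kept the sign of its difference, though the settings share most of their arrays.

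Called differences ran the same way in the 3 genotypes. Among all tested probe sets, 10.8% had a replicate 1 signal above both other arrays of its genotype in F1, C24 and Col alike and 10.3% had one below both in all 3. Among the called ones the groups of arrays did not overlap within any genotype for 206 of 206 higher and 306 of 308 lower probe sets (1.29% and 1.92% of all tested), a pattern that the test itself favours. The median log2 difference of the higher ones was 0.86 in F1, 0.84 in C24 and 0.99 in Col, and that of the lower ones -0.88 in F1, -0.93 in C24 and -1.24 in Col. Over all 15922 probe sets the difference in one genotype correlated with that in another at 0.455 (F1 and C24), 0.473 (F1 and Col) and 0.494 (C24 and Col). This is a description across probe sets; the differences of a pair of genotypes share no array.

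**Figure D2:**
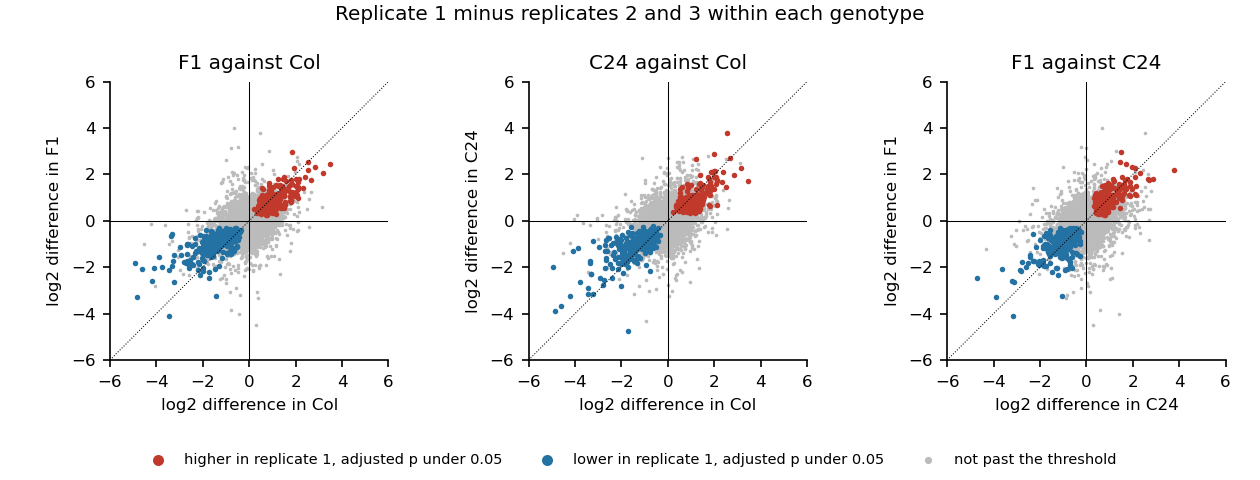
Log2 difference, replicate 1 minus the mean of replicates 2 and 3, in one genotype against that in another, for all 15922 tested probe sets. The dotted line marks equal differences, and the 206 higher and 308 lower probe sets lie in the quadrants where both genotypes have the same sign.

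Calls made in a pair of genotypes were then read in the genotype left out, with values normalized over all 9 arrays. The arrays of C24 and Col gave 57 higher and 149 lower calls. The F1 arrays entered the normalization and the filter but not the fit behind those calls. In F1, 55 of the 57 and 143 of the 149 had the same sign, and 50 and 128 lay outside both other F1 arrays. From F1 and Col there were 12 higher and 42 lower calls, of which 12 and 40 had the same sign in C24. From F1 and C24 there were 3 higher and 6 lower calls, of which 3 and 5 had the same sign in Col. Over all tested probe sets, 46.9% to 53.1% had the matching sign in the genotype left out and 32.3% to 36.6% lay outside both other arrays. The contrast was chosen with replicate 1 known to stand apart in these arrays, so these counts describe and add no support.

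A test for unequal differences between the genotypes called 0 of 15922 probe sets (0.00%) with limma's moderated F, and 229 had an unadjusted p under 0.05, of which 17 were among the 514. With 3 residual degrees of freedom, this count does not show that the genotypes responded alike. Within a single genotype, with 1 array against 2 and the spread shared with the other genotypes, limma called 0 probe sets in F1 (776 at an unadjusted p under 0.05), 1 lower in C24 (0.00628%; 842) and 11 lower in Col (0.0691%; 1288). Replicates 2 and 3 differed from each other in 3 probe sets (0.0188%), all higher in replicate 2, and 1113 had an unadjusted p under 0.05. Where nothing differs, a share of about 0.05 of the 15922 would have such a p. The 229 for unequal differences and the 776 in F1 lay under that share, and the 842 in C24 close to it. The 1288 in Col and the 1113 between replicates 2 and 3 lay over it.

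Exactly 1 gene was named by 97 of the higher and 144 of the lower probe sets. A further 7 named several genes and 266 were not listed in the annotation used and are unnamed here, among them the probe set with the highest log2 difference, 2.84 ± 0.48. Counting each gene once, by its brightest probe set, 96 of 8699 genes were higher (1.1%) and 140 lower (1.61%), spread over all 5 nuclear chromosomes with 11 to 31 higher and 20 to 36 lower genes on each. Of the 62 genes tested on the plastid chromosome, 0 were called by limma.

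The lowest transcript was that of EXLA1 (AT3G45970), an expansin-like A protein of the cell wall. Its signals were 22.0 in F1, 16.2 in C24 and 12.3 in Col in replicate 1, against 203, 311 and 449 in replicate 2 and 232, 183 and 280.0 in replicate 3, with the genotypes in the same order throughout, as in all such sentences below. The brightest replicate 1 array, that of F1, lay far below the dimmest of the other 6, C24 replicate 3, so the groups did not overlap. The fitted signal was 16.1-fold lower in replicate 1 (log2 difference -4.01 ± 0.28, adjusted p = 0.000628), and the call held in all 22 other settings tried. Its replicate 1 signals are close to the filter level of 11.1, where signal and background were not told apart, which leaves the fold uncertain. As the samples are whole shoots, fewer cells of a type and less RNA per cell cannot be told apart, here or below.

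Its close relative EXLA2 (AT4G38400) had signals of 9.22 in F1, 3.08 in C24 and 18.4 in Col in replicate 1, against 55.4, 79.1 and 65.3 in replicate 2 and 47.2, 84.7 and 55.4 in replicate 3. It was lower as well, with a log2 difference of -2.97 ± 0.44 (adjusted p = 0.00948), and its F1 and C24 signals in replicate 1 lie under the filter level. The differences were -2.47 in F1, -4.73 in C24 and -1.71 in Col, with an unadjusted p of 0.000416 for unequal differences that did not pass over all probe sets. EXPA16 (AT3G55500), an alpha-expansin, was lower as well at 14.5 ± 2.54 in replicate 1 and 55.2 ± 15.2 in replicates 2 and 3 (SD, n = 3 and 6).

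Other expansins went the opposite way. The beta-expansin EXPB1 (AT2G20750) had signals of 159 in F1, 215 in C24 and 181 in Col in replicate 1, against 74.3, 88.3 and 70.3 in replicate 2 and 25.6, 61.4 and 56.5 in replicate 3. EXPB3 (AT4G28250) had signals of 359 in F1, 262 in C24 and 526 in Col in replicate 1, against 194, 137 and 236 in replicate 2 and 123, 52.3 and 170.3 in replicate 3. In both genes every replicate 1 array lay above all arrays of replicates 2 and 3, the C24 array of EXPB3 by a narrow margin. The log2 differences were 1.65 ± 0.29 for EXPB1 (adjusted p = 0.0187) and 1.41 ± 0.28 for EXPB3 (adjusted p = 0.0287).

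The alpha-expansins EXPA4 and EXPA15 passed with log2 differences of 0.50 ± 0.11 and 1.26 ± 0.29 (adjusted p = 0.0388 and 0.0495). EXPA8 had a like difference of 1.21 ± 0.29 and missed the threshold (adjusted p = 0.0518). Of the 13 expansin and expansin-like genes tested, 4 were higher and 3 lower, and the median log2 difference was 0.25, against 0.00 over all genes, of which 1.1% were higher and 1.61% lower. The members thus split in direction, and the median does not describe them.

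**Figure D3:**
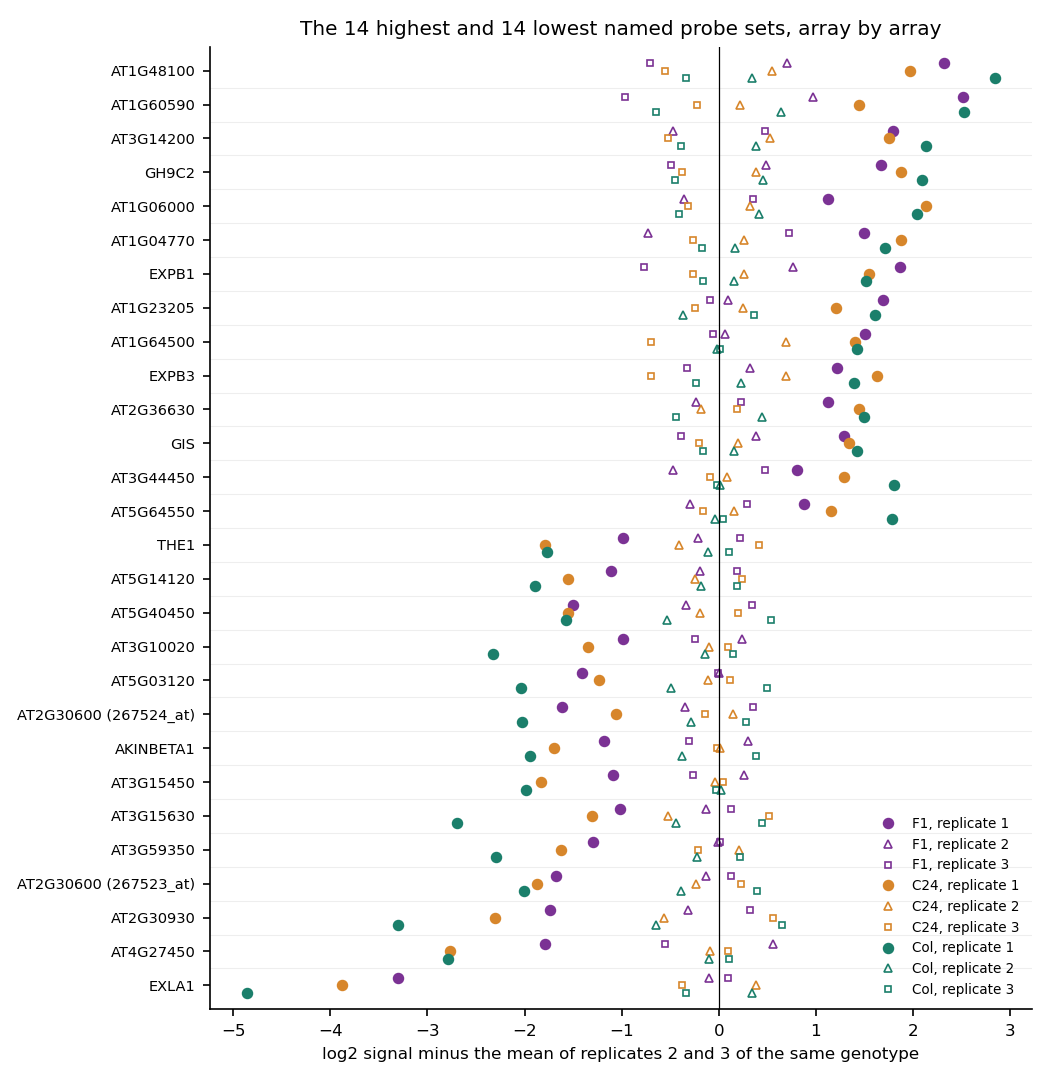
Log2 signal of each array minus the mean of replicates 2 and 3 of the same genotype (horizontal), for the 14 highest and 14 lowest probe sets chosen by the naming rule (vertical, highest at the top). Filled points are replicate 1 and open points replicates 2 (triangles) and 3 (squares). The naming rule requires filled points outside the open ones of their genotype, so all 28 rows show this by selection.

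Polygalacturonase family genes held the 2 largest increases among the genes named by the rule. AT1G48100, a polygalacturonase family gene whose class of enzyme cuts the pectin backbone, had signals of 151 in F1, 155 in C24 and 251 in Col in replicate 1, against 49.4, 58.0 and 44.4 in replicate 2 and 18.6, 27.1 and 27.7 in replicate 3. Its replicate 1 arrays lay above all others, and replicate 3 lay below replicate 2 in each genotype. The fitted signal was 5.19-fold higher (log2 difference 2.38 ± 0.35, adjusted p = 0.0094).

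AT1G60590, of the same family, had signals of 489 in F1, 479 in C24 and 446 in Col in replicate 1, against 167, 205 and 121 in replicate 2 and 43.9, 151 and 49.7 in replicate 3. It was 4.47-fold higher (log2 difference 2.16 ± 0.42, adjusted p = 0.0267), and again replicate 3 held the lowest arrays. One more member, AT1G10640, was at 207 ± 30.1 in replicate 1 and 95.0 ± 12.3 in replicates 2 and 3 (SD, n = 3 and 6), with an adjusted p of 0.00627. Of 19 polygalacturonase family genes tested, 3 were higher and 0 lower by limma, against 1.1% and 1.61% over all genes. The list median was 0.09. AT3G57790, next by p, had -0.31 ± 0.12 (adjusted p = 0.232).

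Pectate lyases, which cut de-esterified pectin, included AT4G24780 with signals of 856 in F1, 879.9 in C24 and 1120.2 in Col in replicate 1, against 529, 433 and 632 in replicate 2 and 355, 372 and 566 in replicate 3. AT1G67750 was at 448 ± 48.4 in replicate 1 and 234 ± 59.8 in replicates 2 and 3, and AT3G09540 at 95.1 ± 0.884 in replicate 1 and 61.0 ± 8.24 in replicates 2 and 3. These 3 of 14 tested pectate lyase genes were higher and 0 lower by limma, against 1.1% and 1.61% over all genes. Their log2 differences were 1.01 ± 0.14, 0.97 ± 0.20 and 0.65 ± 0.13, and the list median was 0.16. AT3G27400, next by p, had 0.49 ± 0.15 (adjusted p = 0.126).

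Of 4 called pectin methylesterases, which remove methyl groups from pectin, 3 were lower. ATPMEPCRB (AT4G02330) had signals of 86.4 in F1, 83.6 in C24 and 24.4 in Col in replicate 1, against 181, 169 and 225 in replicate 2 and 172, 133 and 107 in replicate 3. Its log2 difference was -1.51 ± 0.34 (adjusted p = 0.0429), made up of -1.03 in F1, -0.84 in C24 and -2.67 in Col, with an unadjusted p of 0.0291 for unequal differences that did not pass over all probe sets.

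AT3G10720 and AT1G23200 were lower too, at -1.02 ± 0.23 and -0.73 ± 0.16 (adjusted p = 0.0429 and 0.0364), while AT5G19730 was higher at 0.83 ± 0.17 (adjusted p = 0.0321). Of 13 tested genes, 1 was thus higher and 3 lower, against 1.1% and 1.61% over all genes, with a median of -0.18. AT1G23205, of the family of invertase and pectin methylesterase inhibitors, had signals of 207 in F1, 273 in C24 and 227 in Col in replicate 1, against 68.0, 140.3 and 57.9 in replicate 2 and 60.0, 99.7 and 96.2 in replicate 3. Its log2 difference was 1.50 ± 0.19 (adjusted p = 0.00552). The lists of the 3 pectin families were written after the largest differences had been seen, so their counts describe and add no support. In the shorter list drawn from gene symbols alone, 3 pectin genes were tested, of which ATPMEPCRB was lower, PME61 had 0.37 ± 0.22 (adjusted p = 0.43) and PMEPCRF 0.05 ± 0.19 (adjusted p = 0.924).

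Cellulose and xyloglucan enzymes were represented by few genes. GH9C2 (AT1G64390), an endoglucanase of glycosyl hydrolase family 9, had signals of 819.7 in F1, 879 in C24 and 693 in Col in replicate 1, against 362, 312 and 223 in replicate 2 and 183, 184 and 119 in replicate 3. It was 3.68-fold higher (log2 difference 1.88 ± 0.27, adjusted p = 0.00922), and replicate 3 was below replicate 2 in every genotype. XTH32 (AT2G36870), of the enzymes that cut and rejoin xyloglucan, was higher at 0.75 ± 0.16 (adjusted p = 0.0389).

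XTH33 had -1.94 ± 0.46 (adjusted p = 0.0505), EXGT-A3 -0.94 ± 0.23 (adjusted p = 0.0628) and XTH16 -0.86 ± 0.32 (adjusted p = 0.199), none past the threshold. The F1 and Col signals of XTH33 in replicate 1, 10.4 and 8.25, lie under the filter level of 11.1, so the size of its difference is uncertain. The 5 tested genes had 1 higher and 0 lower calls by limma, against 1.1% and 1.61% over all genes, and a median of -0.86. THE1 (AT5G54380), a receptor kinase that senses the state of the cell wall, had signals of 84.5 in F1, 72.0 in C24 and 88.9 in Col in replicate 1, against 144, 187 and 281 in replicate 2 and 194, 331 and 327 in replicate 3. All replicate 1 arrays lay below the others, with a log2 difference of -1.51 ± 0.22 (adjusted p = 0.0094).

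**Figure D4:**
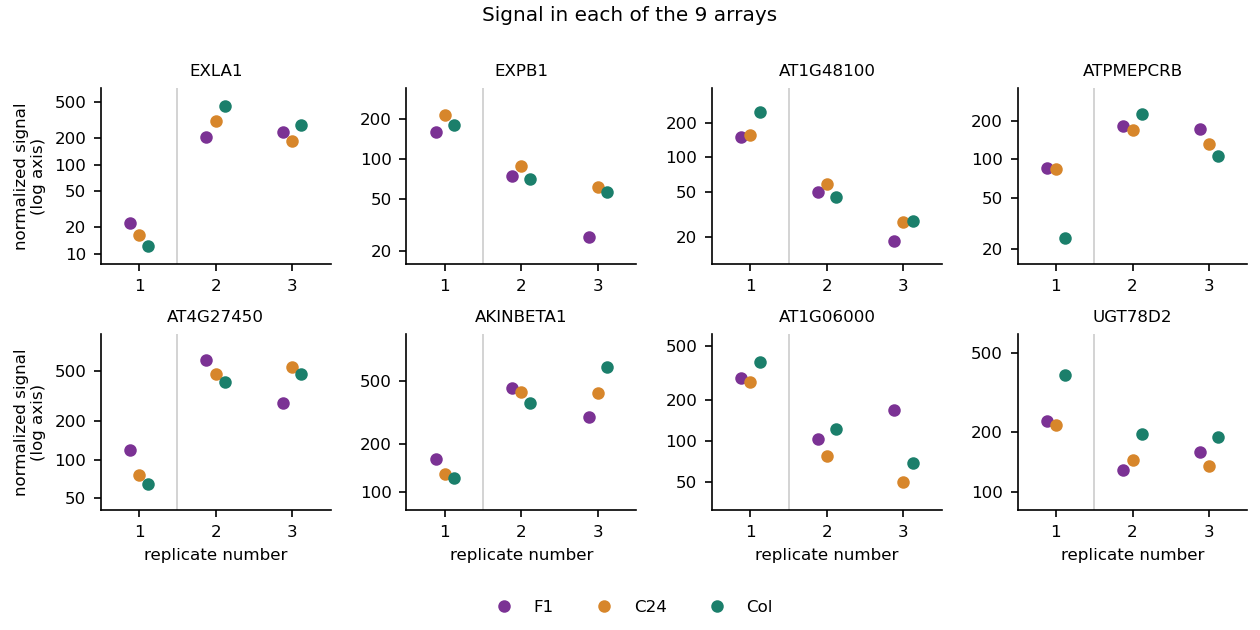
Normalized signal (log axis) by replicate number in F1, C24 and Col for 8 genes, 1 point per array. Replicate 1 lies apart from replicates 2 and 3 within each genotype, below them for EXLA1, ATPMEPCRB, AT4G27450 and AKINBETA1 and above them for EXPB1, AT1G48100, AT1G06000 and UGT78D2. All 8 were taken from the called genes, where the test itself favours this pattern.

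Of the flavonoid genes, 2 passed the test, both higher in replicate 1. AT1G06000, which adds rhamnose to flavonols at their 7 position, had signals of 289 in F1, 273 in C24 and 378 in Col in replicate 1, against 103, 77.4 and 122 in replicate 2 and 169, 49.7 and 69.1 in replicate 3. UGT78D2 (AT5G17050), the flavonoid 3-O-glucosyltransferase, had signals of 227 in F1, 217 in C24 and 386 in Col in replicate 1, against 129.7, 145 and 196 in replicate 2 and 159, 135 and 189.9 in replicate 3. Both passed, with log2 differences of 1.77 ± 0.27 and 0.76 ± 0.13 (adjusted p = 0.0105 and 0.0152), and in both the Col array of replicate 1 was the brightest of all 9.

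Genes of anthocyanin decoration had differences of similar size that did not pass. UF3GT (AT5G54060), the anthocyanin xylosyltransferase, had signals of 209 in F1, 65.2 in C24 and 569 in Col in replicate 1, against 57.9, 35.0 and 188 in replicate 2 and 138, 19.2 and 64.2 in replicate 3, with a log2 difference of 1.65 ± 0.40 (adjusted p = 0.0562). AT5MAT (AT3G29590), an anthocyanin malonyltransferase, had 1.44 ± 0.37 (adjusted p = 0.0671), and AT4G14090, an anthocyanin 5-O-glucosyltransferase, 1.67 ± 0.59 (adjusted p = 0.177). Each of the 3 was brightest in Col and dimmest in C24 in replicate 1, and their arrays of replicates 2 and 3 spread widely, as AT4G14090 shows with 65.2 and 164 in F1 and 49.1 and 5.96 in C24.

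UGT78D1 had 0.52 ± 0.28 (adjusted p = 0.372) and DFR, the reductase at the entry to anthocyanin synthesis, 0.34 ± 0.26 (adjusted p = 0.575). DFR signals were 357 in F1, 154 in C24 and 976 in Col in replicate 1, against 245, 146 and 707 in replicate 2 and 492, 144 and 395 in replicate 3, so that replicate 1 was above both others in C24 and Col and between them in F1. Of the 7 tested genes of the list, 2 were higher and 0 lower by limma, against 1.1% and 1.61% over all genes. All 7 had positive differences and the median was 1.44. Most of the 32 listed genes were not named by a probe set, since 8 were, so the list is a small part of the pathway.

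UDP-glycosyltransferases join sugars to small molecules. Among the 28 tested in a list drawn by gene symbol, 3 were higher and 1 lower, against 1.1% and 1.61% over all genes. The list median was 0.18. UGT76E11 (AT3G46670) was at 144 ± 10.9 in replicate 1 and 65.9 ± 6.04 in replicates 2 and 3 (SD, n = 3 and 6; adjusted p = 0.00441), and UGT71B1 at 229 ± 13.0 in replicate 1 and 130.2 ± 13.9 in replicates 2 and 3 (adjusted p = 0.0129). UGT85A4 was lower at -1.38 ± 0.24 (adjusted p = 0.0189). The third higher one of the list, UGT78D2, belongs to the flavonoid list as well. AT1G06000 and AT2G31790, which also join sugars to small molecules, were called higher but are not in this list.

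Genes of sulfur-containing defence compounds were few. AT2G31790, a UDP-glucosyltransferase of glucosinolate synthesis, had signals of 575 in F1, 639.6 in C24 and 617 in Col in replicate 1, against 323, 406 and 393 in replicate 2 and 317, 354 and 307 in replicate 3. The replicate 1 arrays were close to each other and above all others (log2 difference 0.81 ± 0.12, adjusted p = 0.00905). UGT74B1, of the same step, had 0.71 ± 0.22 (adjusted p = 0.115) and BCAT4, which starts methionine chain elongation, 0.33 ± 0.20 (adjusted p = 0.447). This gave 1 higher of 3 tested, against 1.1% over all genes, and a median of 0.71.

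AT1G04770, known as SDI2 and induced when sulfur is short, had signals of 349 in F1, 281 in C24 and 372 in Col in replicate 1, against 74.9, 92.2 and 128 in replicate 2 and 206, 64.1 and 101 in replicate 3, with a log2 difference of 1.69 ± 0.28 (adjusted p = 0.0143). AT2G36630, of a family of sulfite exporters, was higher as well at 1.35 ± 0.21 (adjusted p = 0.0123). BGLU28, the tested gene of the sulfur starvation list, had 0.71 ± 0.45 and did not pass (adjusted p = 0.474).

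The remaining highest genes by the naming rule were of mixed function. AT3G14200, a DnaJ-domain protein, had signals of 118 in F1, 135 in C24 and 158 in Col in replicate 1, against 24.5, 57.5 and 47.1 in replicate 2 and 47.2, 27.8 and 27.6 in replicate 3. Its log2 difference was 1.89 ± 0.29. AT1G64500, of the glutaredoxin family, had 1.44 ± 0.25, GIS (AT3G58070), a zinc finger protein of trichome development, 1.35 ± 0.19, and AT5G64550 1.27 ± 0.20. Their adjusted p lay between 0.0087 and 0.0167.

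AT3G44450, known as BIC2, an inhibitor of the blue-light receptor cryptochrome, had signals of 480.4 in F1, 605 in C24 and 447 in Col in replicate 1, against 199, 262 and 129.9 in replicate 2 and 383, 233 and 127 in replicate 3. Every replicate 1 array was above all arrays of replicates 2 and 3, with a log2 difference of 1.30 ± 0.22 (adjusted p = 0.0169). Of clock and light genes little was measured. GI, a clock component, had signals of 221 in F1, 278 in C24 and 249.8 in Col in replicate 1, against 299, 323 and 278 in replicate 2 and 276, 300.0 and 259 in replicate 3. Its log2 difference of -0.22 ± 0.11 did not pass (adjusted p = 0.36). The other tested clock gene AT5G52660 had 0.47 ± 0.20 (adjusted p = 0.262), and HYH, a light-signalling factor, 1.12 ± 0.33 (adjusted p = 0.109).

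A pair of related genes was lower in every replicate 1 array. AT4G27450, of a small family named for induction by aluminium, had signals of 119 in F1, 74.9 in C24 and 63.5 in Col in replicate 1, against 609, 478 and 409 in replicate 2 and 282, 542 and 471 in replicate 3. AT3G15450, of the same family, had signals of 700.4 in F1, 484 in C24 and 468 in Col in replicate 1, against 1784, 1677 and 1885 in replicate 2 and 1236, 1769.8 and 1820.0 in replicate 3. Both sets of replicate 1 arrays lay well below the rest, with log2 differences of -2.45 ± 0.26 and -1.63 ± 0.17 (adjusted p = 0.00286 for both), and both calls held when any 1 array was left out. Both missed the threshold when all arrays of C24 or all of Col were left out, with adjusted p between 0.0502 and 0.0579.

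Their 3 relatives did not pass. AILP1 had -0.36 ± 0.10 (adjusted p = 0.101), AT5G43830 -0.19 ± 0.12 (adjusted p = 0.462) and AT3G22850 0.07 ± 0.14 (adjusted p = 0.858). The family was listed after its largest values had been seen. It had 0 higher and 2 lower of 5 genes by limma, against 1.1% and 1.61% over all genes, and a median of -0.36.

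AKINBETA1 (AT5G21170), a beta subunit of the SnRK1 kinase, had signals of 160.4 in F1, 129.5 in C24 and 122 in Col in replicate 1, against 448, 425 and 359.9 in replicate 2 and 293, 417 and 612 in replicate 3. Replicate 1 was 3.05-fold lower (log2 difference -1.61 ± 0.21, adjusted p = 0.00627). BZIP53, the other tested gene of the list on darkness and sugar starvation, had -0.59 ± 0.19 (adjusted p = 0.137).

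Further genes completed the lowest group. AT2G30930 had signals of 128 in F1, 150.1 in C24 and 56.0 in Col in replicate 1, against 341, 503 and 352 in replicate 2 and 531, 1092 and 862 in replicate 3, with replicate 1 the lowest in each genotype and a wide spread among the other 6 arrays, from 341 to 1092. AT2G30600, a gene of a BTB/POZ-domain protein, was read by a pair of probe sets with log2 differences of -1.85 ± 0.18 and -1.57 ± 0.22 (adjusted p = 0.00261 and 0.00905). AT3G59350, a protein kinase gene, was at 61.0 ± 4.22 in replicate 1 and 212 ± 70.6 in replicates 2 and 3 (SD, n = 3 and 6), and AT5G14120, of the major facilitator family of transporters, at 654 ± 133 in replicate 1 and 1875 ± 319 in replicates 2 and 3.

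AT5G40450, known as RBB1 and needed for normal vacuole structure, had -1.54 ± 0.24, and AT3G15630, AT5G03120 and AT3G10020 had -1.67 ± 0.34, -1.56 ± 0.22 and -1.55 ± 0.22. Their adjusted p lay between 0.0087 and 0.0304. For AT3G10020 the differences were -0.99 in F1, -1.35 in C24 and -2.32 in Col, with an unadjusted p of 0.0153 for unequal differences that did not pass over all probe sets. Of the 28 probe sets named for size, 6 kept their call when any 1 of the 9 arrays was left out, namely those of EXLA1, AT4G27450, AT3G59350, AT3G15450 and AT5G14120 and the brighter one of AT2G30600. Without the Col array of replicate 1, 21 of the 28 missed the threshold, without that of C24 19 and without that of F1 9. The naming rule, with its genes from the lists, gave 49 called probe sets. Of these, 7 kept their call when any 1 array was left out, the other one being that of EXLA2. Without the Col, C24 and F1 array of replicate 1, 41, 35 and 23 of them missed the threshold. Called genes given outside the rule, such as EXPA4, EXPA15 and those under other observations, are not in these counts.

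Of 4 auxin-responsive genes, 2 were lower. WES1 (AT4G27260), which joins auxin to amino acids, had signals of 66.7 in F1, 83.2 in C24 and 76.4 in Col in replicate 1, against 100.5, 166 and 133 in replicate 2 and 139, 108 and 142 in replicate 3. IAA29 (AT4G32280), a repressor of auxin signalling, had signals of 9.82 in F1, 25.4 in C24 and 5.69 in Col in replicate 1, against 26.6, 34.2 and 19.8 in replicate 2 and 24.9, 69.7 and 42.7 in replicate 3, with the F1 and Col arrays of replicate 1 under the filter level. Their log2 differences were -0.78 ± 0.17 and -1.56 ± 0.35 (adjusted p = 0.0381 and 0.0429).

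HAT2 had -0.33 ± 0.14 (adjusted p = 0.245) and GH3.3 -0.55 ± 0.23 (adjusted p = 0.258), so that 0 were higher and 2 lower by limma, against 1.61% lower over all genes, with a median of -0.67. Replicate 1 was below both others in all 3 genotypes for all 4, as for 10.3% of all tested probe sets. PYE (AT3G47640), a regulator of the iron deficiency response, was higher at 160.0 ± 42.1 in replicate 1 and 71.9 ± 19.6 in replicates 2 and 3 (SD, n = 3 and 6; adjusted p = 0.0412), while BHLH101 and CCS, the others of the iron and copper list, had 1.35 ± 0.94 and -0.14 ± 0.19 (adjusted p = 0.517 and 0.777). SCPL34 (AT5G23210) was the 1 lower of 15 serine carboxypeptidase-like genes, at -1.49 ± 0.21 (adjusted p = 0.00933, list median -0.01). CYP71B26 (AT3G26290) was the 1 higher of 13 cytochrome P450 genes, at 0.70 ± 0.14 (adjusted p = 0.0304, list median 0.08). The shares over all genes were 1.61% lower and 1.1% higher.

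Photosynthesis genes did not pass. Of 8 nuclear photosystem and electron transport genes limma called 0, with a median of 0.02, and PSAE-1 had signals of 4159 in F1, 4521 in C24 and 3956 in Col in replicate 1, against 4974, 4669 and 4567 in replicate 2 and 4239, 4203 and 5030.0 in replicate 3. Calvin cycle genes (3 tested, median 0.09, RCA at 0.03 ± 0.07), photorespiration genes (3 tested, median 0.11) and chlorophyll synthesis genes (7 tested, median 0.04, PORB at -0.28 ± 0.14) likewise had 0 calls by limma. These medians are near the 0.01 of all probe sets, and reached at most 0.21 with the other scalings. The 4 lists name 50, 20, 12 and 22 genes, so most of their genes were not tested. Quantile normalization sets the brightest signals by rank, as LHCB4.1 shows with 6274 in all 3 C24 arrays. This limits the differences that can be read there.

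Stress lists had 0 calls by limma as well. Few of the listed genes were tested. Medians were -0.28 for 4 of 29 cold and abscisic acid genes and 0.14 for 4 of 20 heat shock genes. They were -0.35 for 5 of 23 salicylic acid and pathogen genes and -0.10 for 3 of 27 jasmonate genes. The cold-induced genes COR27 and AT4G33980, given under other observations, were called lower and are not among the 4. COR15A, a cold-regulated chloroplast protein gene, had signals of 1101 in F1, 1342 in C24 and 2367 in Col in replicate 1, against 1147, 1130.0 and 2733 in replicate 2 and 1395, 1448 and 1618 in replicate 3, and COR47 a log2 difference of -0.60 ± 0.22 (adjusted p = 0.192). The largest difference among the pathogen genes was that of SAG101, at -0.78 ± 0.21 (adjusted p = 0.0833).

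Further lists without a call by limma were starch and sugar transport (5 genes, median -0.10), histones (3, -0.06), glutathione transferases (9, 0.07), chaperones (3, 0.08), WRKY factors (6, -0.14) and tubulins and actins (8, 0.00). A further 14 lists had 1 or 2 tested genes each, in which AKINBETA1 was the 1 call, and 11 had none. Among their other genes were SNZ, a flowering repressor, at 0.92 ± 0.25 (adjusted p = 0.0772) and STZ, a stress-induced zinc finger gene, at 0.60 ± 0.47 (adjusted p = 0.573).

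The plastid genome was read by many probe sets. Its 62 tested genes had a median of 0.27, with 47 of 62 differences positive. In F1 the median was 0.87 and 57 were positive, in C24 it was -0.10 with 22 positive and in Col -0.12 with 25 positive. These medians are given as values, and 0 of the 62 passed limma's test for unequal differences between genotypes over all probe sets.

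**Figure D5:**
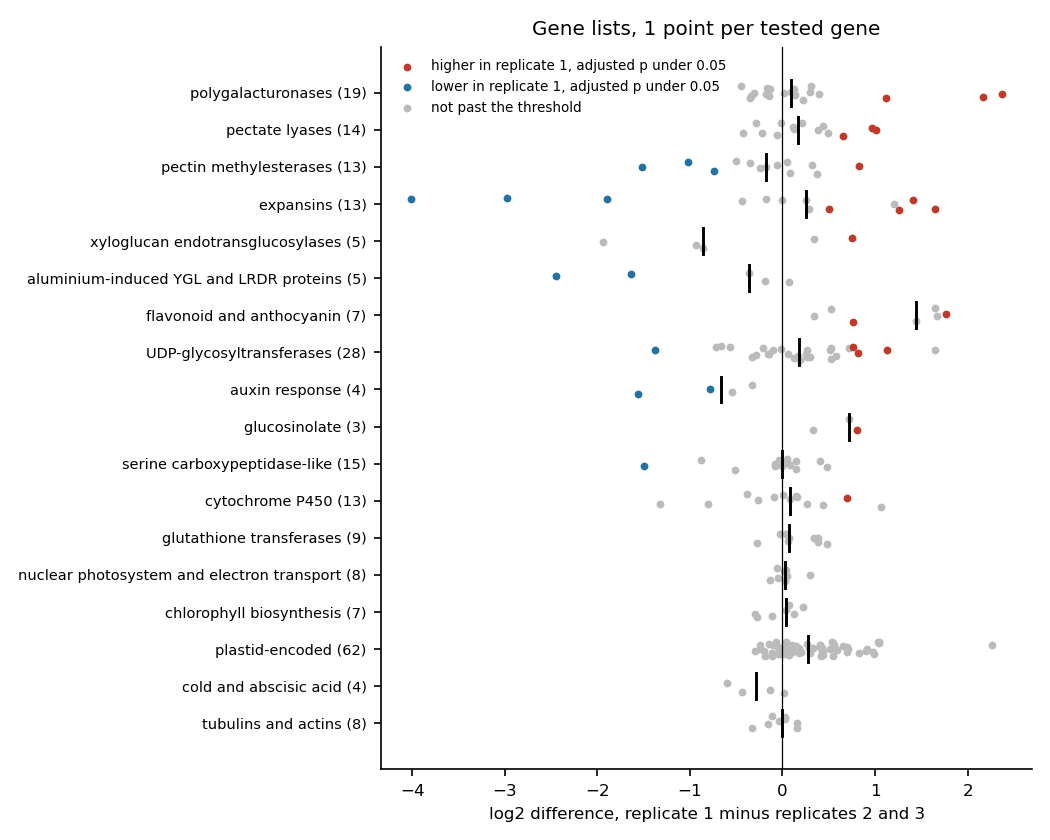
Log2 difference, replicate 1 minus replicates 2 and 3 (horizontal), of each tested gene of 18 lists (vertical, number of tested genes in brackets), with the list median as a black bar. Expansins hold genes in both directions, from -4.01 for EXLA1 to 1.65 for EXPB1, and the 7 flavonoid and anthocyanin genes all lie above 0.

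Control measures were compared by an exact permutation test over the 27 arrangements of numbers within genotypes, two-sided, whose smallest possible p is 0.037. A single measure at that p would reach 0.222 once adjusted over the 6 measures, so the test could hardly call any of them, and its p-values do not show that labelling or RNA quality was even. The 24 poly-A spike probe sets differed by -0.43 (exact p = 0.333), lower in C24 and Col and higher in F1. The 18 hybridisation controls differed by 0.08 (exact p = 0.889), and the ratios of 5' to 3' or middle signal by 0.20 for GAPDH, 0.36 for ubiquitin and 0.12 for actin (exact p = 0.148, 0.148 and 0.667). As given above, GAPDH and ubiquitin had replicate 1 highest in all 3 genotypes, while actin had it highest in Col alone. The single 25S ribosomal RNA probe set ran from 41.4 to 2464 over the 9 arrays (exact p = 1), and adjusted over the 6 measures all p lay between 0.444 and 1. Nuclear photosystem genes, which mark a green shoot, were bright in all arrays, as PSAE-1 shows above. Of the root markers, PYK10 was at 612 ± 369 in replicate 1 and 842 ± 608 in replicates 2 and 3. EXPA18 was at 14.4 ± 2.08 in replicate 1 and 16.2 ± 8.04 in replicates 2 and 3, and neither passed (adjusted p = 0.459 and 0.993). Flower and seed markers were named by no probe set used here. The part of any of these measures in the differences was not tested.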

How the data were processed

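Probe-set signals were measured in 9 samples on 9 arrays, and the values deposited by the authors are intensities on a linear scale, produced with GCOS per the submitters' processing notes, with no version given in the sources used here. Without its top and bottom 2%, the mean of each deposited column was 150.01 to 150.02, and arrays of a genotype correlated at 0.944 to 0.971. No detection calls were used, so dim signals were not told apart from background. Precision is limited by having 9 arrays.

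The 64 control probe sets were set aside and the other 22746 quantile normalized (limma 3.58.1, R 4.3.3). Values were set to at least 1, log2 was taken, and probe sets with a mean log2 under the 30th percentile were left out. One limma fit over 9 arrays had a mean per genotype and a term for replicate 1, with eBayes (trend), Benjamini-Hochberg adjustment over 15922 probe sets and an adjusted p under 0.05 as threshold. All adjusted p-values printed for genes come from it. Log2 differences are replicate 1 minus replicates 2 and 3 with the standard error, signals are normalized linear values, ± on signals is the SD over 3 and 6 arrays, and a gene in a list is read by its brightest probe set.

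Symbols came from the platform annotation and the TAIR10.1 gene table: of 22746 probe sets, 13513 named 1 gene, 503 several and 8730 none. Named genes were the 14 highest and 14 lowest called probe sets that named 1 gene, with the brighter side above the median signal and replicate 1 outside both other arrays in all 3 genotypes, up to 4 genes of smallest p from each list with at least 3 tested genes, and GI, DFR, COR15A, PORB and RCA of 9 genes to be given when measured. Of 556 loci in 30 lists, 84 were named by a probe set and 78 tested; 20 lists were drawn by symbol or chromosome, and 4 were written after values had been seen. The contrast, the members and all lists were chosen with earlier results of these data known, including that replicate 1 stood apart. The fit was run on simulated arrays with independent noise and differences planted equally in all genotypes, in brighter probe sets only. This checks the code and not dim signals or variation that arrays of a number share.

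The labels do not say that a number marks a shared growth or harvest. Deviations from the genotype means correlated at 0.455 to 0.494 between arrays numbered 1, 0.013 to 0.148 between those numbered 2, 0.124 to 0.201 between those numbered 3 and -0.345 to 0.205 between different numbers. The deviations of a genotype's arrays cancel out, so the values for number 1 repeat the correlations between genotypes given above. For the same reason the other values are tied to these and are no separate finding. Alternatives were other scalings, filters, a floor of 10, no variance trend, other model terms, and leaving out arrays, replicate numbers or genotypes.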

Additional observations from a re-analysis of the deposited data

Results flagged for a closer look

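In 3 of the 28 probe sets named for size, 1 of the 6 arrays of replicates 2 and 3 stood far from the other 5 by Dixon's criterion for 6 values. For 6 draws from 1 normal population, chance alone marks about 1 in 20 groups. The 6 arrays came from 3 genotypes whose means were not removed, so that rate may not hold here. EXPB1 was at 25.6 in F1 replicate 3, against 56.5 to 88.3 in the other 5 arrays. AT1G64500 was at 117 in C24 replicate 2, against 44.9 to 62.6 in the others. AT3G15450 was at 1236 in F1 replicate 3, against 1677 to 1885 in the others. Without that array the log2 differences were 1.42, 1.63 and -1.78, and all 3 genes kept their call.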

How the results depend on the processing

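No paired analysis was possible because the replicate number is itself the contrast. The 206 higher and 308 lower calls became 24 and 31 with no filter, 126 and 192 with no variance trend, 44 and 128 with a replicate 1 effect per genotype, and 314 and 401 with a term for each replicate number. Leaving out genotype F1 gave 57 and 150, C24 12 and 46, and Col 6 and 19. Leaving out replicate 2 or 3 or any 1 array gave 3 to 417 higher and 27 to 484 lower calls. With no filter, 20 of the 206 and 30 of the 308 passed again; the cause was not tested. The 3 calls between replicates 2 and 3 became 8 with a common median, 5 with a floor of 10, 1 with no variance trend and 0 with no filter by limma. Unequal differences between genotypes had 0 calls by limma in the main and 6 other settings. The deposited scaling gave 186 and 300 calls, a common median 236 and 289, the 50th percentile filter 212 and 291 and a floor of 10 254 and 341. A common median moved the glutathione transferase median to 0.13. The deposited and common median scalings moved those of photosystem genes to 0.08 and 0.10, Calvin cycle genes to 0.15 and 0.17, and photorespiration genes to 0.19 and 0.21. No call among the named genes changed sign in any setting. Signals near 11.1 are a limit, since no detection calls were used, as are 9 arrays with 1 number against 2.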

Other observations

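Several further called genes stood outside the naming rule and were chosen after their values had been seen. AT3G52740, known as BIC1 and like BIC2 an inhibitor of cryptochromes, was at 101 ± 20.9 in replicate 1 and 32.8 ± 12.3 in replicates 2 and 3 (SD, n = 3 and 6), a log2 difference of 1.67 ± 0.21 (adjusted p = 0.00487). COR27 and AT4G33980, known as COR28, both cold-induced and tied to the clock, were lower, COR27 at 7.19 ± 2.62 in replicate 1 and 35.4 ± 7.67 in replicates 2 and 3 and AT4G33980 at 8.46 ± 2.68 in replicate 1 and 24.9 ± 6.13 in replicates 2 and 3 (adjusted p = 0.00261 and 0.0126). Their replicate 1 signals lay under the filter level of 11.1 and were not separated from background. CCL, a transcript whose stability follows the clock, was lower by little at 3345 ± 99.4 in replicate 1 and 4520.0 ± 342 in replicates 2 and 3 (adjusted p = 0.016).

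ATG8E, which builds autophagosomes, was at 99.4 ± 22.8 in replicate 1 and 247 ± 43.6 in replicates 2 and 3 (log2 difference -1.32 ± 0.17, adjusted p = 0.00552). SDP1, a lipase of stored oil, and MCCA, a subunit of an enzyme of leucine breakdown, were lower at -0.82 ± 0.19 and -0.74 ± 0.16 (adjusted p = 0.0491 and 0.0424). CSLA03 and CSLC04, synthases of cell wall polysaccharide backbones, were lower at -1.47 ± 0.22 and -0.84 ± 0.16 (adjusted p = 0.0103 and 0.0262). On the higher side stood SAPX, an organellar ascorbate peroxidase, at 773 ± 196 in replicate 1 and 511 ± 172 in replicates 2 and 3, GR1, a glutathione reductase, at 630.2 ± 65.3 in replicate 1 and 408 ± 53.2 in replicates 2 and 3, and VTC4, of ascorbate synthesis, at 977 ± 206 in replicate 1 and 725 ± 146 in replicates 2 and 3, with adjusted p of 0.0254, 0.0388 and 0.0321. NAI1, the factor that forms endoplasmic reticulum bodies, was lower at -0.97 ± 0.16 (adjusted p = 0.0158).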
